A study of Mus musculus with 6 samples.

Results

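The genes described here encode the chains of adult haemoglobin and the proteins that make, break down and bind heme. They comprised 10 of the 25718 gene rows of the deposited table, namely Hba-a1, Hba-a2, Hbb-bs, Hbb-bt, Alas1, Alas2, Hmox1, Blvrb, Hpx and Hp, and were taken by gene symbol. These members were chosen on the genotype contrast itself, in which the globin genes had already been seen among the largest falls, so their levels and fold changes are given as a description with no test. Tests are given only for genes of the surrounding pathways and of cell type lists that are not members. These lists were also chosen with earlier results of these data known, so the shares called in them are read as descriptions.

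The libraries came from mouse primary hepatocytes, labelled as isolated from alcohol-fed mice, with 3 libraries labelled WT and 3 labelled S100A16 knockdown. The study describes the second group as male mice heterozygous for a knockout of S100a16, obtained by crossing a floxed allele to EIIa-Cre mice, and they are called S100a16KO+/- here. As background, EIIa-Cre is active in the early embryo, so that the deletion is not limited to hepatocytes. Mice of both genotypes were male, were 8 to 10 weeks old and received the same ethanol protocol. It comprised 5 days of control liquid diet, 10 days of diet with 5% ethanol and 1 gavage of 5 g/kg ethanol. Collection followed 9 hours later. All cells were obtained by collagenase perfusion and a Percoll gradient, the labels do not say whether each library is 1 mouse, and p-values therefore measure the spread between these libraries, which may be partly technical.

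Heme is an iron-holding porphyrin made in steps that begin and end in the mitochondrion. The first and limiting step is run by ALAS1 in most cells, the liver included, and by ALAS2 in red cell precursors, where most heme goes into haemoglobin, a tetramer of 2 alpha and 2 beta chains. Heme oxygenases open the ring to biliverdin, biliverdin reductases turn that into bilirubin, and the liver secretes haptoglobin and hemopexin, which bind free haemoglobin and free heme in plasma. Globin transcripts are abundant in reticulocytes and their precursors.

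The sequences of the globin genes are shown first because they decide how far the copies can be told apart. Hba-a1 (ENSMUSG00000069919, chromosome 11 from 32283511 to 32284465) and Hba-a2 (ENSMUSG00000069917, chromosome 11 from 32296489 to 32297298) encode alpha chains on the plus strand. Hbb-bs (ENSMUSG00000052305, chromosome 7 from 103826534 to 103827928) and Hbb-bt (ENSMUSG00000073940, chromosome 7 from 103812524 to 103813996) encode beta chains on the minus strand. In GENCODE M21 (GRCm38, the mm10 build of the table), the coding sequences of the alpha pair differed at 1 of 426 bases, C381T, counted from 1 at the A of the start codon with the base of Hba-a1 first. Those of the beta pair differed at 1 of 441 bases, C417T, with the base of Hbb-bs first. The coding stretches around these differences, 5′ to 3′ on the strand of the gene with the differing base in capitals, lie at chr11:32284313-32284372, chr11:32297130-32297189, chr7:103826668-103826722 and chr7:103812659-103812713:
Hba-a1: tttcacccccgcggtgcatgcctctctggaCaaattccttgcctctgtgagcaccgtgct
Hba-a2: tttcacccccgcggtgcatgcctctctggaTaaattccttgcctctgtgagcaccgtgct
Hbb-bs: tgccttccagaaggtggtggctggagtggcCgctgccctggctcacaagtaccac
Hbb-bt: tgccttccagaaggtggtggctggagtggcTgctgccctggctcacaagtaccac
Of the distinct 31-base words in their annotated transcripts, 75.5% for Hba-a1, 92.6% for Hba-a2, 54.4% for Hbb-bs and 59.4% for Hbb-bt also occurred in another gene. How the counting shared such reads between copies is not given in the sources used here, so the split within each pair is uncertain, while the sum over the 4 genes rests less on it. Of the other 6 members, 5 had no such shared word, and Hp shared 0.254% of its words.

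The upstream sequences of the globin genes and Alas2 are shown because these genes are all transcribed in red cell precursors. The RefSeq promoter table (GRCm38.p6) held entries for 8 of the 10 members, and not for Hmox1 and Hp. Each stretch starts 220 bases before the RefSeq start and stops at that start or where the annotated gene begins, whichever comes first. Capitals mark matches on either strand to a GATA motif (AGATAA or TGATAA), to CACCC or to TATAAA. The stretches lie at chr11:32296272-32296488 (plus strand), chr7:103827929-103828148 (minus strand), chr7:103813997-103814143 (minus strand) and chrX:150547197-150547374 (plus strand):
Hba-a2: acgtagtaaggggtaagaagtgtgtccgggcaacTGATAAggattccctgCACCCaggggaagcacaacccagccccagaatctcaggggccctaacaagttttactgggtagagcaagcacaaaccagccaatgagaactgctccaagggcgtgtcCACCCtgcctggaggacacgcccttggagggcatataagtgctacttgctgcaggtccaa
Hbb-bs: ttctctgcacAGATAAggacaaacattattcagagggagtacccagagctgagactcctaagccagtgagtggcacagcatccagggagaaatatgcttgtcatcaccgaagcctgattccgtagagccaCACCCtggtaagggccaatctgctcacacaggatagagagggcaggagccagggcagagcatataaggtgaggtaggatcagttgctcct
Hbb-bt: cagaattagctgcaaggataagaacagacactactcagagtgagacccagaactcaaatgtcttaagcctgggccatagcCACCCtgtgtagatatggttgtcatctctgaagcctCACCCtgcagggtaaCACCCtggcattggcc
Alas2: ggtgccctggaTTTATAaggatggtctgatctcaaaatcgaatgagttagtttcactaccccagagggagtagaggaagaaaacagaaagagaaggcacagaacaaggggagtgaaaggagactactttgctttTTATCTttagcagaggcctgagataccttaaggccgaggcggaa
The 220 bases before Hba-a1 matched those before Hba-a2 at all 217 aligned bases and are not printed again. Within the whole 220 bases, a GATA motif was found before Hba-a1, Hba-a2, Hbb-bs and Alas2, compared with 14.6% of the 32851 promoters in the table. CACCC was found before all 4 globin genes, Alas2, Hpx and 1 entry each of Alas1 and Blvrb, compared with 48.5% of promoters, and the 3 copies before Alas2 lay between the annotated gene start and the RefSeq start and are not printed. TATAAA was found before Hbb-bt and, on the opposite strand, before Alas2, compared with 10.9% of promoters. Relative to the RefSeq start, the match lay at -28 to -23 for Hbb-bt and at -209 to -204 for Alas2. The Hbb-bt match lies past its printed stretch. The core of the antioxidant response element, TGACNNNGC or TGAGNNNGC, was found before Hbb-bt, 1 of the 2 Blvrb entries and Hpx, compared with 20.8% of promoters. The STAT motif TTCNNNGAA was found before 1 of the 2 Alas1 entries, compared with 6.05%, and the E-box CACGTG before none of the 8 genes, compared with 5.59%. These matches describe the letters in the window and were not tested further.

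The table held 67658095 to 71807834 estimated counts per library, read here as about 4 counts per sequenced fragment. Albumin, the leading hepatocyte product, was listed at 32475 to 34053 FPKM in all 6 libraries, where FPKM is a level per transcript length and sequencing depth. S100a16 had 1001 to 1107 counts in WT and 366 to 433 in S100a16KO+/- libraries. WT replicate 1 and S100a16KO+/- replicate 2 stood apart from their group on the second principal component, and results that depend on them are named below. Of 15957 genes tested with edgeR's quasi-likelihood test, 22.8% had an adjusted p under 0.05, 11.6% higher and 11.2% lower in S100a16KO+/- hepatocytes, and for 37.9% the CPM values of the genotypes did not overlap. CPM here is each count scaled to the size of its library with TMM factors (counts-per-million).

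All 4 adult globin transcripts were lower in S100a16KO+/- than in WT hepatocytes, at 8.44% to 9.27% of the WT mean. In WT libraries the summed globin counts came to 214.8 to 236.6 CPM taken on all counts without TMM scaling, and in S100a16KO+/- libraries to 19.9 to 20.7 CPM. The mean of their fitted log2 fold changes was -3.52, against a median of 0.01 over all tested genes. Among all 15957 tested genes, 29 were lower by 3 or more on the log2 scale, the 4 globin genes among them.

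Hba-a1 was at 79.8, 56.7 and 65.5 CPM in the WT libraries and at 5.35, 7.11 and 5.08 CPM in the S100a16KO+/- libraries. Hba-a2 was at 46.5, 40.8 and 47.9 CPM in WT and at 3.46, 4.47 and 3.48 CPM in S100a16KO+/-. Every WT value of both alpha genes lay far above every S100a16KO+/- value. The log2 fold change was -3.53 (SE 0.19) for Hba-a1 and -3.57 (SE 0.11) for Hba-a2. The beta gene Hbb-bs, the most abundant globin, was at 89.0, 77.8 and 83.3 CPM in WT and at 8.79, 6.97 and 7.43 CPM in S100a16KO+/- libraries. Hbb-bt was at 29.7, 33.6 and 37.2 CPM in WT and at 1.89, 3.25 and 3.48 CPM in S100a16KO+/-. The beta genes likewise did not overlap between genotypes, with log2 fold changes of -3.43 (SE 0.09) for Hbb-bs and -3.54 (SE 0.22) for Hbb-bt. The lowest value of the set, Hbb-bt in S100a16KO+/- replicate 1, was 131 counts, well above the 12 counts that a count of 0 allows for 3 fragments in 1 library. Such floors cover counting error only.

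**Figure D1:**
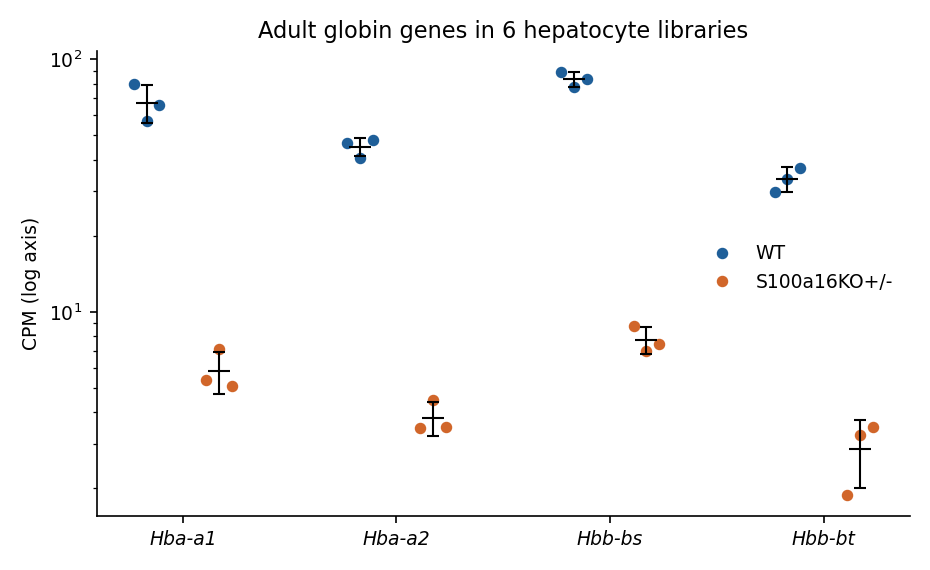
CPM on a log axis for the 4 adult globin genes in each of the 3 WT and 3 S100a16KO+/- libraries (points), with the group mean and SD (bars). For Hbb-bs the WT libraries lie between 77.8 and 89.0 CPM and the S100a16KO+/- libraries between 6.97 and 8.79 CPM, and all 4 genes are separated by a similar distance.

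The balance between the chains showed no such separation. The ratio of alpha to beta FPKM was 1.06, 0.879 and 0.945 in WT and 0.832, 1.13 and 0.786 in S100a16KO+/- libraries, with overlapping ranges. Hba-a1 to Hba-a2 was 1.41, 1.14 and 1.12 in WT and 1.27, 1.31 and 1.20 in S100a16KO+/-. Hbb-bs to Hbb-bt was 2.74, 2.12 and 2.05 in WT and 4.26, 1.97 and 1.95 in S100a16KO+/-, where the high value again came from S100a16KO+/- replicate 1 with its low Hbb-bt. The coefficient of variation of the CPM of single globin genes was 6.75% to 17.3% in WT and 12.2% to 29.9% in S100a16KO+/-. Outside the adult chains, the intracellular globin Cygb was the single other globin tested, at 1.18 ± 0.298 CPM in WT and 1.84 ± 0.0212 CPM in S100a16KO+/- (SD, n = 3 each), and did not pass the threshold (log2 fold change 0.64, SE 0.25, edgeR adjusted p = 0.0888).

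Markers of red cells and their precursors are given beside the globins because haemoglobin is their main product. Of 26 such markers, 19 had a row, 14 were tested, 1 rose and 1 fell, a share of 14.3% beside the 22.8% of all genes, with a median log2 fold change of 1.17e-05. Their summed CPM was 56.8 to 63.8 in WT and 49.0 to 54.0 in S100a16KO+/- libraries. More than any other marker, Ube2l6, a ubiquitin-like conjugating enzyme also made outside red cells, made up that sum, and it fell from 32.7 ± 2.98 to 23.8 ± 1.02 CPM (SD, n = 3 each, log2 fold change -0.46, SE 0.08, edgeR adjusted p = 0.000574). Isg20, an interferon-induced exonuclease, rose from 0.972 ± 0.105 to 2.53 ± 0.386 CPM (log2 fold change 1.38, SE 0.23, edgeR adjusted p = 0.000559).

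The erythroid transcription factor Klf1 had 177, 169 and 123 counts in WT and 161, 195 and 167 in S100a16KO+/-, with overlapping ranges. Counts of Epb42, Rhd, Kel and Gata1 were at or near 0 in every library of both genotypes, with at most 6 counts. Other markers held more, such as Sptb with 73, 56 and 52 counts in WT and 26, 77 and 50 in S100a16KO+/-. The CPM of Tal1 was higher in S100a16KO+/- without overlap. It did not pass the threshold (log2 fold change 0.96, SE 0.38, edgeR adjusted p = 0.0854). Ahsp, Slc4a1, Rhag, Hemgn, Tspo2, Trim58 and Cldn13 had no row under these symbols and were not analysed. In bulk libraries, fewer cells of a type and less RNA per cell cannot be told apart, and the part of red cell RNA in the globin difference was not tested.

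**Figure D2:**
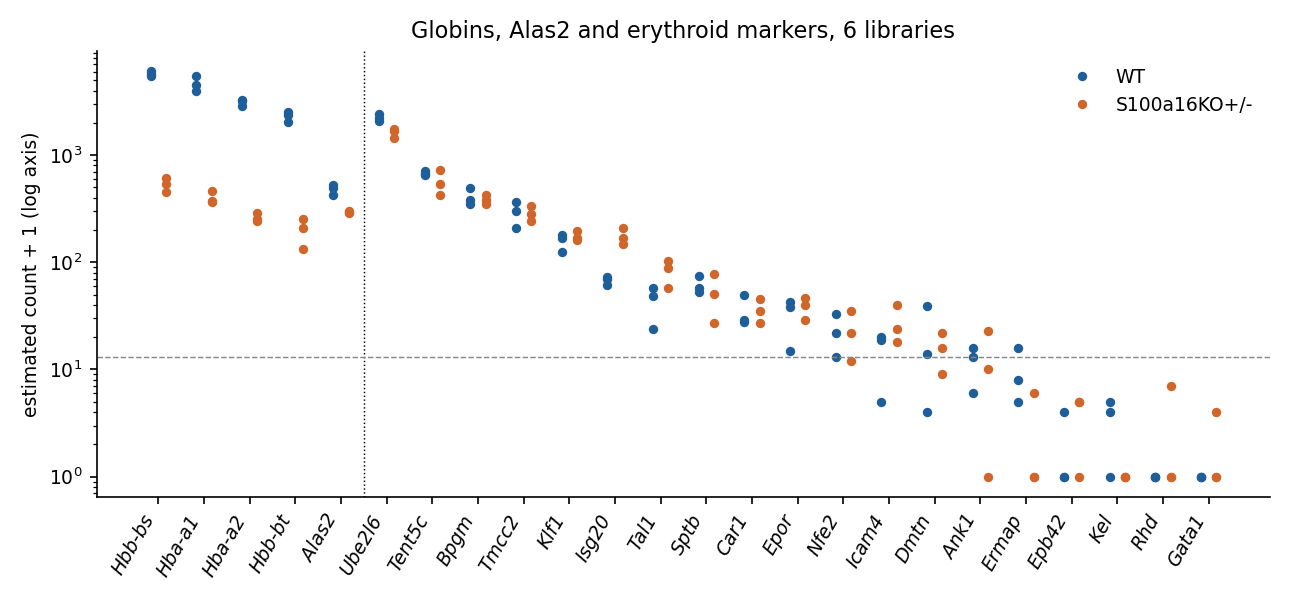
Estimated counts plus 1 on a log axis for the 4 globin genes and Alas2 (left of the dotted line) and the 19 erythroid markers with a row (right), with each point 1 library and the dashed line at the floor of 12 counts. The globin genes are separated between genotypes, whereas Klf1, from 123 to 195 counts, and most other markers overlap.

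Other blood cells and liver cells were read from the same fit. Of 27 neutrophil, platelet and lymphocyte markers, 15 were tested. With edgeR 0 passed the threshold and 2 had a p under 0.05 before adjustment, and DESeq2 and limma voom called 0 as well. Their summed CPM was at least 9.06 in WT and 11.4 in S100a16KO+/- libraries and at most 12.7 in any library. Every S100a16KO+/- sum lay above every WT sum, without overlap. Taken singly, the sums of each cell type overlapped. Neutrophil markers summed to 3.48 to 5.68 CPM in WT and 5.39 to 6.52 CPM in S100a16KO+/-. Platelet markers summed to 1.33 to 2.37 and 1.57 to 2.55 CPM, and lymphocyte markers to 3.56 to 4.25 and 3.36 to 4.53 CPM. Of the 25 markers with a row, 12 had at most 72 counts over all 6 libraries. S100a8 and S100a9, abundant neutrophil transcripts, were at most 1.68 CPM in either group mean. The lists of other cell types are read beside the 11.6% of all genes that rose and the 11.2% that fell. Among 10 endothelial markers, 9 rose and 1 (Lyve1) fell, and their sum went from 325.8 to 346.7 CPM in WT to 480.9 to 495.0 CPM in S100a16KO+/-. Among 10 stellate and fibroblast markers, 5 rose and none fell, with sums of 41.5 to 45.4 and 75.1 to 81.1 CPM. Among 10 Kupffer and macrophage markers, 3 rose (Marco, C1qb and Cd68) and none fell, a share of 30% called beside 22.8% of all genes, and the sums of 145.6 to 175.3 and 172.2 to 188.4 CPM overlapped. The call of Cd68 was lost without WT replicate 3 (edgeR adjusted p = 0.0755), without S100a16KO+/- replicate 2 (adjusted p = 0.0679) and without both WT replicate 1 and S100a16KO+/- replicate 2 (adjusted p = 0.0676). Of 10 hepatocyte markers, 1 rose and 3 fell, with a median log2 fold change of -0.07. The rise, that of Tat, was lost in 6 of 19 alternatives, and the fall of Trf in 9. Of 4 tested cholangiocyte markers, 1 fell (Sox9) and none rose. Thus the summed endothelial and stellate markers were higher where the globins were lower. The same held for the neutrophil, platelet and lymphocyte markers when pooled, and not for each cell type singly. The part of these cell types in the globin result was not tested.

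Genes outside the set whose pattern over the 6 libraries was nearest to that of the globins were ranked by distance, over the 9033 tested genes that averaged 1 FPKM or more. The measure was the root mean square difference between centred log2(CPM + 1) values. The nearest were G0s2 (0.0850), Tsku (0.0945), Ppp1r3b (0.180), Fgf21 (0.223) and Inhbe (0.259). G0s2, an inhibitor of triglyceride lipase, went from a mean of 191.0 CPM in WT to 18.3 CPM in S100a16KO+/- libraries, and Tsku, a secreted liver protein, from 315.8 to 34.7 CPM. These hepatocyte genes are listed for their likeness in 6 libraries alone, which is mainly their difference between the genotypes.

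For the first step of heme synthesis, the erythroid isoform Alas2 was lower and the general isoform Alas1 slightly higher in S100a16KO+/- hepatocytes. Alas2 (ENSMUSG00000025270, chromosome X from 150547375 to 150570638) was at 7.13, 6.01 and 7.64 CPM in WT and at 4.32, 4.53 and 3.96 CPM in S100a16KO+/- libraries. Its values did not overlap, and the S100a16KO+/- mean was 61.6% of WT (log2 fold change -0.70, SE 0.14). This difference was smaller than that of the globin genes, as the range of the log2 fold change over alternatives was -0.79 to -0.46 for Alas2 and -3.72 to -3.25 for the single globin genes. Alas2 overlaps Apex2 on the opposite strand, and Apex2, a DNA repair nuclease gene, had 199, 158 and 204 counts in WT and 192, 173 and 179 in S100a16KO+/-, with overlapping ranges.

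Alas1 (ENSMUSG00000032786, chromosome 9 from 106233455 to 106248654) was at 246.5, 253.9 and 236.6 CPM in WT and at 276.5, 274.6 and 275.8 CPM in S100a16KO+/- libraries. The groups did not overlap and the difference was small (log2 fold change 0.17, SE 0.05). Per transcript length, Alas1 exceeded Alas2 by 13.5, 16.5 and 12.1 times in the WT libraries and by 25.2, 23.7 and 27.3 times in the S100a16KO+/- libraries, again without overlap. The genes nearest to Alas2 in pattern were Fabp1, Oasl1, Gas1, Tst and Mpp1, at distances of 0.0528 to 0.0586. Among them, Mpp1 encodes a scaffold protein of the red cell membrane that is also made in other tissues, and Fabp1 is the fatty acid binding protein of the hepatocyte.

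A further 6 enzymes of the pathway are given in the order of their steps. Of these, 2 fell and none rose, a share of 33.3% beside the 22.8% of all genes. Alad, which joins the product of ALAS into a pyrrole, fell from 53.4 ± 2.99 to 40.8 ± 3.28 CPM (SD, n = 3 each, log2 fold change -0.39, SE 0.07, edgeR adjusted p = 0.000877). Uros had a log2 fold change of 0.15 (SE 0.09) and Urod of 0.08 (SE 0.06), and neither passed the threshold. Cpox, the coproporphyrinogen oxidase of the mitochondrial intermembrane space, was at 106.5, 101.3 and 102.2 CPM in WT and at 60.8, 64.4 and 61.4 CPM in S100a16KO+/- libraries. This was the larger of the falls among the synthesis enzymes outside the set (log2 fold change -0.73, SE 0.05, edgeR adjusted p = 2.27e-07). Ppox (log2 fold change 0.26, SE 0.13) and Fech, which inserts the iron (0.13, SE 0.05), did not pass the threshold. Alas1 was the most abundant enzyme of the pathway, at a mean of 35.5 FPKM in WT and 40.1 FPKM in S100a16KO+/-.

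Of 18 tested genes for the transport of iron, heme and porphyrins, 2 rose and 3 fell, a share of 27.8% beside the 22.8% of all genes, and 2 of the 3 falls were lost in several fits. The paired mitochondrial iron importers moved apart. Slc25a37 (mitoferrin 1), the main form in erythroid cells, was at 58.3, 61.9 and 57.4 CPM in WT and at 30.7, 30.4 and 30.3 CPM in S100a16KO+/- libraries (log2 fold change -0.96, SE 0.06, edgeR adjusted p = 2.15e-08). Slc25a28 (mitoferrin 2), the form used by most other cells, was at 16.9, 14.7 and 14.3 CPM in WT and at 27.8, 25.9 and 28.4 CPM in S100a16KO+/- (log2 fold change 0.84, SE 0.08, edgeR adjusted p = 5.42e-06). Slc25a38, which carries glycine into the mitochondrion for the ALAS reaction, rose from 12.3 ± 0.860 to 17.8 ± 0.908 CPM (SD, n = 3 each, log2 fold change 0.53, SE 0.09, edgeR adjusted p = 0.000636). Pgrmc1, a heme-binding membrane protein and the most abundant of the list, had a log2 fold change of -0.14 (SE 0.05, edgeR adjusted p = 0.0408), and its call was lost in 5 of the 6 fits without 1 library, with adjusted p from 0.0546 to 0.165, and in all 3 fits on log2 FPKM. Abcb10, a mitochondrial transporter, also fell (log2 fold change -0.32, SE 0.09, edgeR adjusted p = 0.0196), and lost its call without WT replicate 2 (edgeR adjusted p = 0.0904), WT replicate 3 (adjusted p = 0.0522) or S100a16KO+/- replicate 2 (adjusted p = 0.0568) and in all 3 fits on log2 FPKM. Over synthesis, transport, breakdown and scavenging together, 3 of 36 tested genes outside the set rose and 6 fell, a share of 25% beside 22.8% of all genes. That count of 9 was 5 without WT replicate 2 and 14 without both libraries that stood apart.

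**Figure D3:**
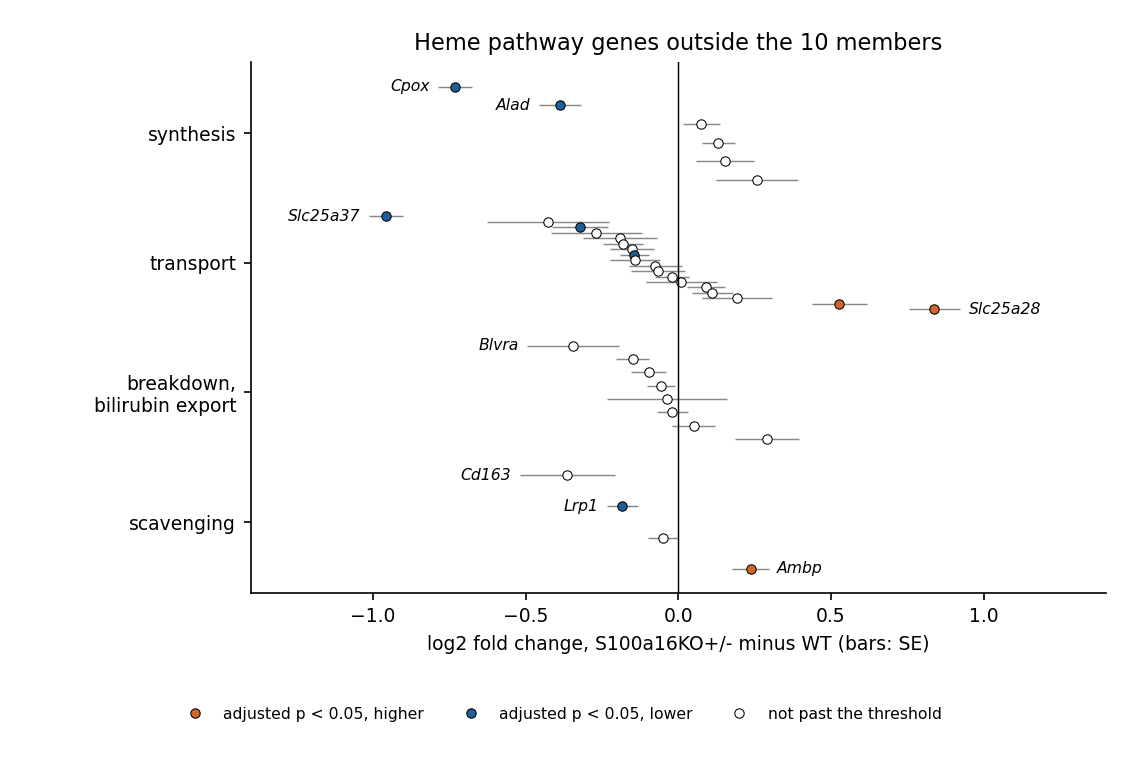
Log2 fold change of S100a16KO+/- minus WT (points) with SE (bars) for the 36 tested heme pathway genes that are not members, in 4 rows by role, each filled where edgeR's adjusted p was under 0.05. The falls of Slc25a37 (-0.96) and Cpox (-0.73) and the rise of Slc25a28 (0.84) lie farthest from 0, and no gene of the breakdown row passed the threshold.

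The enzymes that open and reduce the heme ring showed little difference between genotypes. Hmox1 (ENSMUSG00000005413, chromosome 8 from 75093621 to 75100589), the inducible heme oxygenase, was at 18.0, 16.3 and 14.5 CPM in WT and at 16.3, 19.9 and 14.4 CPM in S100a16KO+/- libraries. The ranges overlapped, and the log2 fold change was 0.05 (SE 0.12). Blvrb (ENSMUSG00000040466, chromosome 7 from 27447978 to 27466144), the biliverdin and flavin reductase that is also abundant in red cells, was at 66.9, 63.7 and 64.7 CPM in WT and at 55.9, 64.1 and 57.5 CPM in S100a16KO+/-. S100a16KO+/- replicate 2 fell within the WT range while the other 2 lay below it, giving a log2 fold change of -0.14 (SE 0.06), or -0.20 without that library. Of the other 8 genes of breakdown and bilirubin export, 0 passed the threshold with edgeR, 3 had an unadjusted p under 0.05, and DESeq2 called 1 (Por, the reductase that passes electrons to heme oxygenase). The constitutive oxygenase Hmox2 averaged 12.4 FPKM in WT and 13.0 FPKM in S100a16KO+/- and had a log2 fold change of 0.05 (SE 0.07). The main biliverdin reductase Blvra had -0.34 (SE 0.15, edgeR adjusted p = 0.124). Ugt1a1, which conjugates bilirubin and shares its last exons with the other Ugt1a transcripts, had -0.04 (SE 0.20).

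Regulators, not all of them heme-responsive, and the genes of the antioxidant response, to which Hmox1 belongs, were read as further lists. Of 13 regulators, 3 rose and 6 fell, a share of 69.2% beside the 22.8% of all genes, and the other 4 did not pass the threshold. Several of these calls were lost in some alternatives. The rise of Maff was lost in 7, among them each fit without 1 WT library (edgeR adjusted p from 0.0562 to 0.0595). The fall of Nr1d2 was lost in 6 alternatives and that of Keap1 in 5. Ppargc1a, a coactivator that raises Alas1 transcription in fasting, rose from 6.81 ± 0.673 to 26.5 ± 0.916 CPM (SD, n = 3 each, log2 fold change 1.96, SE 0.09, edgeR adjusted p = 2.44e-09). Mafk, a small partner of both NRF2 and the heme-binding repressor BACH1, rose with a log2 fold change of 0.82 (SE 0.10, edgeR adjusted p = 4.64e-05). Nfe2l2, which encodes NRF2, fell (log2 fold change -0.53, SE 0.06, edgeR adjusted p = 1.39e-05), as did Bach1 (-0.34, SE 0.07, edgeR adjusted p = 0.00430), a call that all 3 fits on log2 FPKM lost. Nr1i3, the xenobiotic receptor and the most abundant regulator, had -0.16 (SE 0.06, edgeR adjusted p = 0.0621).

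Among NRF2 and BACH1 target genes other than Hmox1, 2 of 13 tested rose and 7 fell, again 69.2% beside 22.8% of all genes. One of the falls, that of the autophagy adaptor gene Sqstm1 (log2 fold change -0.14, SE 0.05, edgeR adjusted p = 0.0479), was lost in 12 of 19 alternatives, among them all 6 fits without 1 library (adjusted p from 0.0509 to 0.166). Osgin1 fell most, from 123.2 ± 10.7 to 34.0 ± 3.06 CPM (SD, n = 3 each, log2 fold change -1.86, SE 0.08, edgeR adjusted p = 6.78e-10). Srxn1, which encodes sulfiredoxin, rose (log2 fold change 0.53, SE 0.06, edgeR adjusted p = 2.03e-05), and Me1, the cytosolic malic enzyme, rose by 0.44 (SE 0.05, edgeR adjusted p = 3.06e-05). The ferritin light chain gene Ftl1, the most abundant of the list, had a log2 fold change of -0.17 (SE 0.04, edgeR adjusted p = 0.0116), lost without WT replicate 3 (adjusted p = 0.0970), without S100a16KO+/- replicate 1 (adjusted p = 0.0573) and in all 3 fits on log2 FPKM (adjusted p from 0.0667 to 0.195).

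**Figure D4:**
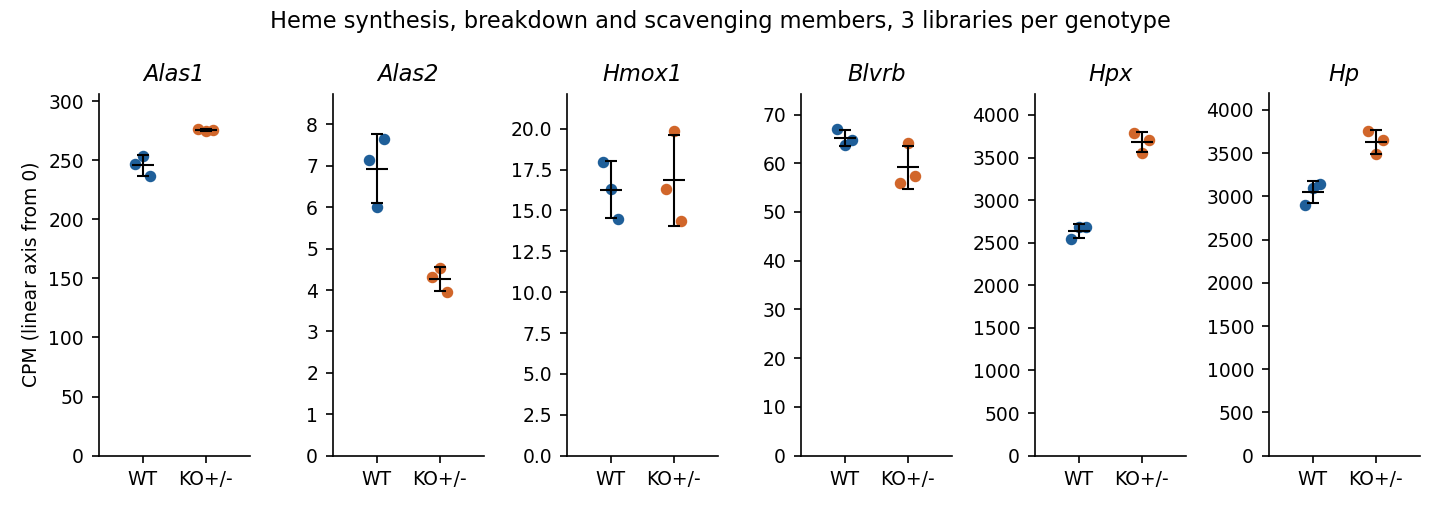
CPM on linear axes from 0 for the 6 members outside the globins in each library (points), with group means and SD (bars). Alas1, Hpx and Hp are higher and Alas2 lower in S100a16KO+/- (KO+/-) than in WT without overlap, whereas the values of Hmox1 (14.4 to 19.9 CPM) and Blvrb (55.9 to 66.9 CPM) overlap.

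The plasma scavengers made by hepatocytes were both higher in S100a16KO+/- libraries. Hpx (ENSMUSG00000030895, chromosome 7 from 105591613 to 105600137), which encodes the heme binder hemopexin, was at 2539, 2680 and 2680 CPM in WT and at 3787, 3556 and 3711 CPM in S100a16KO+/-. Hp (ENSMUSG00000031722, chromosome 8 from 109575128 to 109579172), which encodes the haemoglobin binder haptoglobin, was at 2903, 3094 and 3143 CPM in WT and at 3758, 3488 and 3647 CPM in S100a16KO+/-. Neither gene overlapped between genotypes. The S100a16KO+/- mean was 140% of WT for Hpx (log2 fold change 0.48, SE 0.04) and 119% for Hp (0.25, SE 0.05). They ranked 40 and 41 by mean FPKM among the tested genes and together took 0.518% to 0.594% of all counts in WT and 0.668% to 0.772% in S100a16KO+/- libraries. The ratio of Hpx to Hp FPKM was 0.937, 0.928 and 0.914 in WT and 1.08, 1.09 and 1.09 in S100a16KO+/-, so that the more abundant of the pair changed from Hp to Hpx. In all, 8 of the 10 members did not overlap between genotypes, beside 37.9% of all tested genes, from which nothing is read because that contrast chose them.

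The receptors that take up the bound forms did not follow their ligands. Cd163, the macrophage receptor for haptoglobin with haemoglobin, was at 6.16, 8.68 and 7.79 CPM in WT and at 6.93, 5.52 and 5.14 CPM in S100a16KO+/-, with overlapping ranges (log2 fold change -0.36, SE 0.16, edgeR adjusted p = 0.116). Lrp1, the receptor for hemopexin with heme, fell by 0.18 on the log2 scale (SE 0.05, edgeR adjusted p = 0.0160), a call lost without WT replicate 2 (adjusted p = 0.0975), without S100a16KO+/- replicate 3 (adjusted p = 0.0732) and in all 3 fits on log2 FPKM. Ambp, whose product alpha-1-microglobulin also binds heme, rose with a log2 fold change of 0.24 (SE 0.06, edgeR adjusted p = 0.0108), and lost that call without WT replicate 2 (adjusted p = 0.0749) or WT replicate 3 (adjusted p = 0.0727). Albumin, a further plasma heme binder, had -0.05 (SE 0.05, edgeR adjusted p = 0.536).

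Hp and Hpx are acute phase genes, switched on by interleukin-6 and interleukin-1 signals, and a list of 26 such genes and their regulators was read beside them. Of these, 23 rose and none fell, beside 11.6% of all tested genes that rose, and the median log2 fold change was 0.44. The rise of the regulator Stat3 was lost in 10 of 19 alternatives, among them limma voom (adjusted p = 0.0555). Lcn2, which encodes the siderophore binder lipocalin 2, was at 12.1, 11.2 and 10.4 CPM in WT and at 35.4, 39.9 and 32.3 CPM in S100a16KO+/- (log2 fold change 1.67, SE 0.09, edgeR adjusted p = 1.17e-08). Socs3, a feedback inhibitor of the interleukin-6 pathway, rose with a log2 fold change of 1.43 (SE 0.11, edgeR adjusted p = 3.03e-07). Saa3, a serum amyloid gene, rose by 0.92 (SE 0.26, edgeR adjusted p = 0.0191), a call lost without WT replicate 3 (adjusted p = 0.0775), without S100a16KO+/- replicate 1 (adjusted p = 0.0727) or 2 (adjusted p = 0.0777), and without both libraries that stood apart (adjusted p = 0.0917). The complement gene C3, the most abundant of the list, rose by 0.20 (SE 0.04, edgeR adjusted p = 0.00348), or 0.19 without WT replicate 3 (adjusted p = 0.0521). The Saa, Orm and Serpina3 genes of this list have near-identical copies, so their separate values are uncertain. The fold changes of Hpx (0.48) and Hp (0.25) lay on either side of the list's median.

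**Figure D5:**
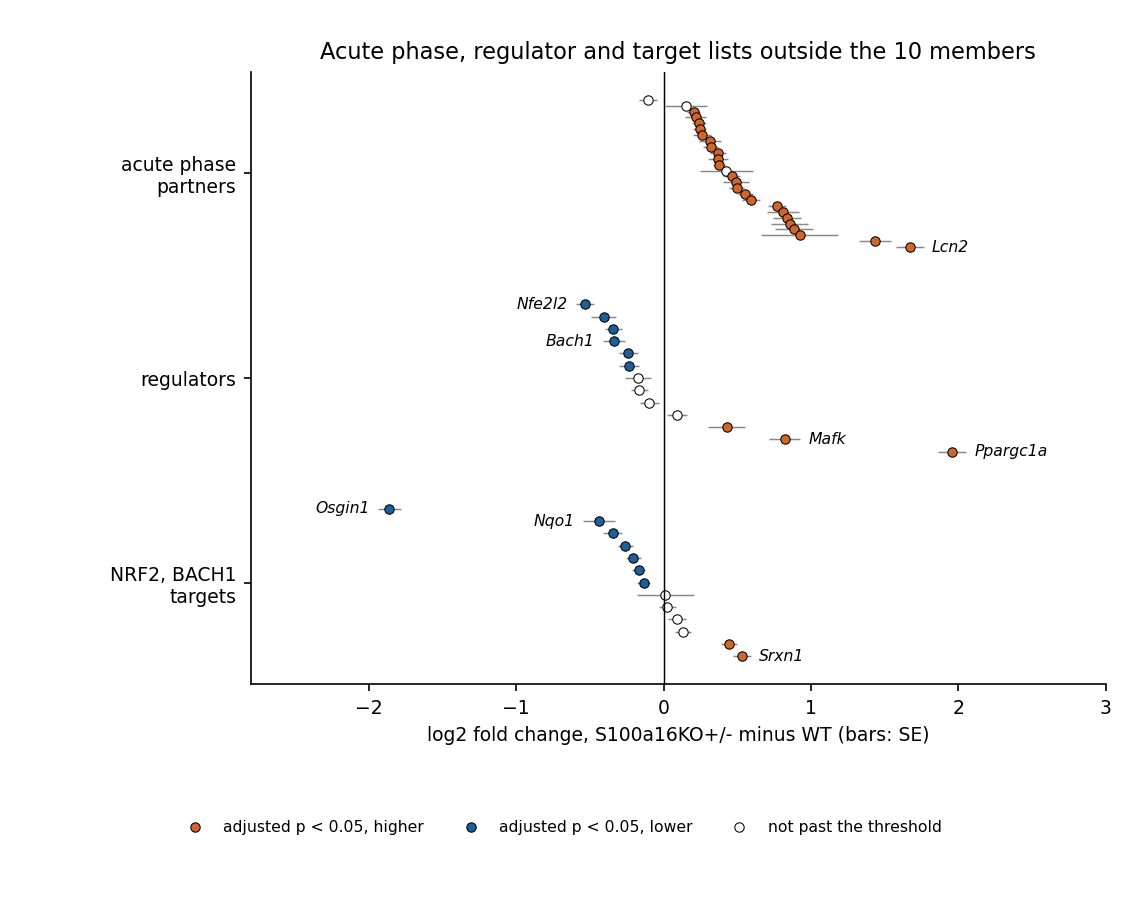
Log2 fold change of S100a16KO+/- minus WT (points) with SE (bars) for tested genes of 3 lists that are not members, each filled where edgeR's adjusted p was under 0.05. In the acute phase row 23 of 26 genes are higher with Lcn2 (1.67) farthest out, while the regulators and the NRF2 and BACH1 targets lie on both sides of 0, from Osgin1 (-1.86) to Ppargc1a (1.96).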

How the data were processed

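Polyadenylated RNA of 6 libraries was read as paired ends after a strand-marking library preparation with unique molecular identifiers. Per the submitters' processing notes, the authors used cutadapt 1.9, HISAT2 2.0.4, UMI-tools, StringTie 1.3.4d, DESeq2 and edgeR with mm10; the study names DESeq2 for its own test between genotypes, and the role of edgeR and the use of strand in counting are not given in the sources used here. The deposited expected counts are whole numbers estimated per gene by the authors and were used as whole numbers. They were read here as about 4 counts per fragment, which is uncertain. The deposited FPKM values are those of the authors and were used only for levels per length and for alternatives.

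Counts were fitted with edgeR 4.0.16 in R 4.3.3 (TMM, filterByExpr, robust quasi-likelihood F test, two-sided, Benjamini-Hochberg over 15957 genes, adjusted p under 0.05), comparing 3 S100a16KO+/- with 3 WT libraries. Fold changes are S100a16KO+/- minus WT. CPM SDs are over 3 libraries, and an unseen gene may hold up to 12 counts, or 0.167 to 0.187 CPM. Alternatives used DESeq2 1.42.0, limma 3.58.1 (voom, and log2 FPKM with pseudocounts of 0.1 and 1), other scalings and filters, a replicate block and each library left out. Same-numbered libraries deviated together with correlations of -0.05, -0.02 and 0.05, so the numbers were not taken as pairs. Replicate pairs of each group differed by more than sampling noise.

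The members and lists were chosen with earlier results of these data known. Some genes of the lists are not reported here and are left out of the lists' counts and sums. Named genes were all 10 members and, from each list, the 3 with the largest change among those past the threshold, the most abundant, direct partners in a step (synthesis enzymes) and counts of 5 or fewer, together with the 5 genes nearest in pattern to the globins and to Alas2. Klf1, Sptb, Tal1, Apex2, S100a8, S100a9, Maff, Nr1d2, Keap1, Stat3, Cyb5a, Steap3, Sqstm1, Por, Tat and Trf were added after their values were seen.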

Additional observations from a re-analysis of the deposited data

How the results depend on the processing

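The globin genes kept their direction in all 19 alternatives, and no result changed direction among those called. The mean globin log2 change of -3.52 became -3.30 with limma on log2(FPKM + 1), with and without the filter on low values, where the pseudocount itself compresses low values. Genes called across the table numbered 3643 with edgeR, 2167 with limma on log2(FPKM + 0.1), 2188 on log2(FPKM + 1) and 1666 on log2(FPKM + 1) without the filter. The erythroid count of 2 became 1 with limma on log2(FPKM + 0.1) and log2(FPKM + 1), where the filter on FPKM left Isg20 untested. The heme pathway count of 9 stayed between 6 and 11 over the alternatives that kept all libraries.

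Leaving out 1 library at a time gave 2734 to 3302 called genes, a globin mean of -3.60 to -3.46, 8 to 9 members without overlap, 2 to 3 erythroid markers and 5 to 11 heme pathway genes, the 5 without WT replicate 2. Without both WT replicate 1 and S100a16KO+/- replicate 2, an alternative added after seeing the data, the values were 3412, -3.57, 9, 3 and 14. With the replicate block they were 3082, -3.52, 8, 2 and 8. Calls named in the text that this block lost were those of Ftl1, Pgrmc1, Sqstm1, Cyb5a, Tat and Trf. Hmox1 ranged from -0.08 to 0.15 and kept its sign in 16 of 19 alternatives. Of the fits of other called list genes, 1548 kept their call, 129 lost it and 0 reversed. With about 4 counts per fragment, genes under about 12 counts are near the limit of detection, which covers the low erythroid markers.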

Other observations

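The enzymes that hold heme as their working group were read as a further list of 25 liver hemoproteins, all tested. Of these, 1 rose and 13 fell, beside 11.6% and 11.2% of all tested genes, and their summed CPM was 25792 to 27883 in WT and 18288 to 20905 in S100a16KO+/- libraries. Among the falls, those of Cyb5a and Steap3 were each lost in 6 of 19 alternatives. Cyp2b10, a drug-inducible cytochrome P450, fell from 327.6 ± 15.1 to 104.8 ± 5.95 CPM (SD, n = 3 each, log2 fold change -1.64, SE 0.06, edgeR adjusted p = 8.22e-11). The fatty acid hydroxylases Cyp4a14 (log2 fold change -1.09, SE 0.05, edgeR adjusted p = 1.19e-09) and Cyp4a10 (-0.94, SE 0.09, edgeR adjusted p = 6.35e-05) fell as well, though the Cyp4a genes have near-identical copies and their separate values are uncertain. Cyp2e1, the ethanol-oxidizing P450 and the most abundant of the list, fell by 0.33 on the log2 scale (SE 0.05, edgeR adjusted p = 0.000106). The single rise was that of Nos3, the endothelial nitric oxide synthase (log2 fold change 0.69, SE 0.19, edgeR adjusted p = 0.0193), which was lost without WT replicate 1 (adjusted p = 0.0793), WT replicate 2 (adjusted p = 0.0762), S100a16KO+/- replicate 1 (adjusted p = 0.0855) or both libraries that stood apart (adjusted p = 0.0638).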
